A study of Mus musculus with 15 samples.

Results

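The genes described here are the hormone and growth factor receptors of the hepatocyte: the vasopressin receptor Avpr1a, the receptor partner Ramp3, the glucagon receptor Gcgr, the adrenergic receptors Adra1a and Adra1b, the angiotensin receptor Agtr1a, the insulin receptor Insr, the growth hormone receptor Ghr, the EGF receptor Egfr and the prolactin receptor Prlr. They were chosen by a list of 10 symbols and measured through probe sets annotated to a single gene, keeping for each gene the probe set with the highest mean over all arrays. Of the 10 genes, 8 had such a probe set among the 18820 genes measured, and Adra1a and Prlr were not analysed here. Avpr1a and Ramp3 were put on the list because of their values on these arrays, Avpr1a for lower values with every isoform than with GFP and Ramp3 for its interaction between both features of the isoforms. For those differences the values below are a description with no test.

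The study asked which gene programs each isoform of FXR regulates. FXR (gene Nr1h4) is the bile acid receptor of the cell nucleus, and its 4 isoforms differ in a short MYTG insert after the DNA-binding domain, which FXRα1 and FXRα3 carry and FXRα2 and FXRα4 lack, and in the N-terminus, which is longer in FXRα3 and FXRα4. Primary hepatocytes of male C57BL/6J mice, isolated by collagenase perfusion and a Percoll gradient, were transduced overnight with 1 of 5 adenoviruses. There were 3 Affymetrix whole-transcript arrays for each virus and 15 in all. The 4 isoform groups received the human FXRα1, FXRα2, FXRα3 or FXRα4 together with GFP, which has a CMV promoter of its own in every virus, and the control group received GFP alone. All 5 groups were cultured with dexamethasone and insulin at first, then for another 24 h without either hormone, and RNA was taken 36 h after transduction. Expression from a virus adds the human receptor on top of whatever FXR the mouse cells make themselves, and no FXR agonist is named in the labels. The level of human FXR made from each virus was not analysed here. Differences between isoform groups cannot be told apart from differences in that level. No source used here gives the age of the mice or how many animals the arrays stand for.

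These receptors are the means by which hepatocytes read hormones in portal and arterial blood. Vasopressin, angiotensin II and noradrenaline act in the liver through Gq-coupled receptors (AVPR1A, AGTR1A and the alpha-1 adrenoceptors), which release calcium from stores and activate glycogen breakdown. Glucagon acts through a Gs-coupled receptor that raises cyclic AMP, while insulin, EGF and growth hormone act through receptors with tyrosine kinase activity of their own or with associated JAK kinases. RAMP proteins are single-pass membrane partners that join the calcitonin receptor-like receptor (CALCRL) and set which peptide, CGRP or adrenomedullin, it binds.

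The stretch of genome just upstream of each of both list-defining genes is shown because the differences below are differences in transcript level from these genes. Both are RefSeq sequences of the mouse assembly GRCm38.p6 on the + strand, ending 1 base before the annotated start of the gene, in lower case with matches to the searched motifs in capitals. Avpr1a lies at chr10:122448249-122448498 for the 250 bases printed. Ramp3 lies at chr11:6658283-6658505 for the 223 bases that the promoter table held before the gene's annotated start.
Avpr1a: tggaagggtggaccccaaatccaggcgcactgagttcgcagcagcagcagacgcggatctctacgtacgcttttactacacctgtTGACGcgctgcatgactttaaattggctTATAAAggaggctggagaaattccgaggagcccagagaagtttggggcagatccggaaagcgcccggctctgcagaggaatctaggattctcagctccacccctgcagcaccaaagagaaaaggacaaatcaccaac
Ramp3: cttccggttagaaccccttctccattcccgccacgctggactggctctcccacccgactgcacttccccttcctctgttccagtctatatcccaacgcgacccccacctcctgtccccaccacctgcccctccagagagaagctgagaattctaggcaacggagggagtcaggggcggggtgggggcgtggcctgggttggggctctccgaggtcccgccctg

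The searched letters were AGGTCA, the half-site of many nuclear receptors, TGACG, the half-site of CREB, and TATAAA, the TATA box, each on both strands. In the stretches printed above no match overlapped another. The Avpr1a stretch held TGACG 165 bases and TATAAA 137 bases before the start, and the Ramp3 stretch held none of these letters. Over all 32851 mouse promoters of the table, 14% held AGGTCA, 17.8% held TGACG and 12.4% held TATAAA. These shares, and the members below, were read from the first 250 bases of each promoter entry. Such a window can run past the annotated start, as for Ramp3, with 223 bases before it. Of the 8 measured receptors, 6 had a promoter in the table, among which TATAAA was present in Avpr1a and Ghr, TGACG in Avpr1a and AGGTCA in no member. The GC content was 53.6% in the Avpr1a stretch and 65.0% in the Ramp3 stretch, against a median of 52.4% over the same windows of all promoters. These matches are a description of letters in a window.

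The values are the deposited log2 signals of the arrays, which ranged from 1.93 to 13.8, with array medians from 4.92 to 5.01. A difference of 1 on this scale is a 2-fold ratio of signals. No detection call came with the values used here, and 3 arrays a group set the precision. Groups were compared with limma over all 18820 genes with Benjamini-Hochberg adjustment, and a gene is said to have risen, fallen or changed when its adjusted p was under 0.05. No source used here says whether the 3 arrays of a group came from different mice or dishes, so a p-value speaks of array-to-array spread that could be technical. Of all genes, 12.4% passed with FXRα1 against GFP (8.42% higher and 4.0% lower), 34.3% with FXRα2 (17.5% higher, 16.7% lower), 14.1% with FXRα3 (7.45% higher, 6.62% lower) and 33.8% with FXRα4 (18.0% higher, 15.7% lower). Centring each array on the median of its 18820 genes, not of all probe sets, moved all differences from GFP. The shifts were -0.10, -0.22, -0.04 and -0.21 with FXRα1, FXRα2, FXRα3 and FXRα4. The share of higher genes among those called then went from 67.8% to 32.7%, from 51.1% to 14.4%, from 53.0% to 39.9% and from 53.4% to 16.3%. Counts of gene groups against GFP are therefore given below on both scales. After median centring 1005 of all genes were called higher and 2070 lower with FXRα1, and 1889 and 11273 with FXRα2. With FXRα3 these counts of all genes were 1220 and 1838, and with FXRα4 1927 and 9860. Median centring took the median difference over all genes from -0.0477 to -0.269 with FXRα2 and from -0.0267 to -0.239 with FXRα4. With 75th percentile centring these medians were -0.0589 and -0.0158, and with quantile normalization -0.0309 and -0.022.

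**Figure D1:**
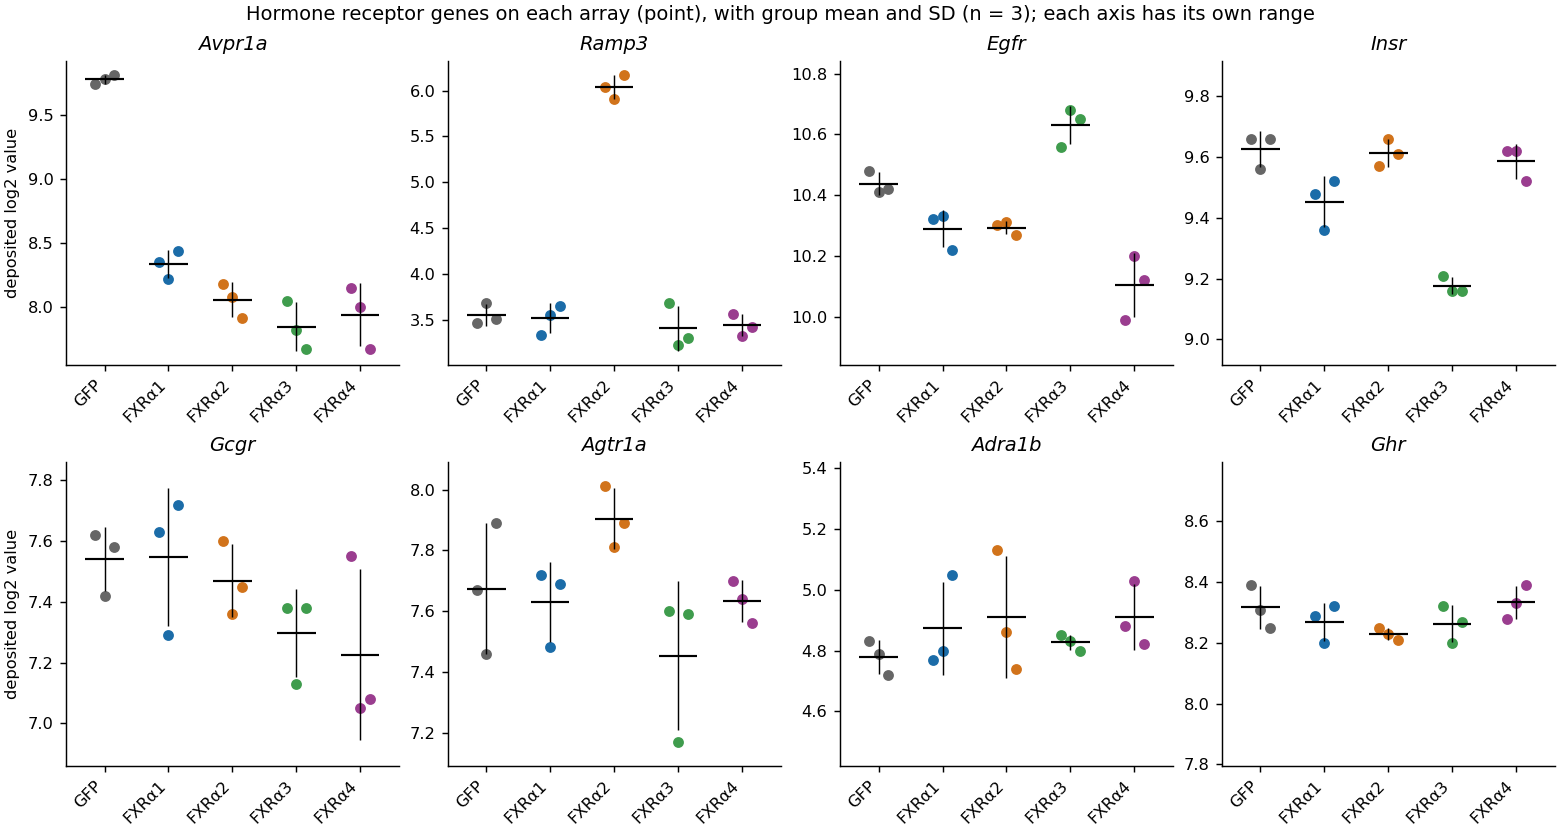
Deposited log2 value (y axis) of the 8 measured receptor genes on each of the 15 arrays (points), by virus (x axis), with the group mean and SD (n = 3); each panel has its own range of at least 1 log2 unit. Avpr1a is lower with every isoform than with GFP, Ramp3 is high with FXRα2, Egfr is highest with FXRα3 and lowest with FXRα4, Insr is lowest with FXRα3, and every isoform group of Adra1b and Ghr overlaps that of GFP.

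Avpr1a encodes the V1a receptor, through which vasopressin raises calcium in hepatocytes. Its log2 values were 9.74, 9.78 and 9.81 with GFP. With FXRα1 they were 8.35, 8.22 and 8.44, and with FXRα2 they were 8.18, 8.08 and 7.91. With FXRα3 the values were 8.05, 7.82 and 7.67, and with FXRα4 8.15, 8.0 and 7.67. All 12 isoform arrays thus lay below all 3 GFP arrays, and the FXRα2, FXRα3 and FXRα4 arrays overlapped among themselves. The group means (± SD, n = 3) were 9.78 ± 0.04 for GFP, 8.34 ± 0.11 for FXRα1, 8.06 ± 0.14 for FXRα2, 7.85 ± 0.19 for FXRα3 and 7.94 ± 0.25 for FXRα4. The differences from GFP were -1.44, -1.72, -1.93 and -1.84, each with an SE of 0.10, so that the signal was 0.369, 0.304, 0.262 and 0.280 times that of GFP. Over all 27 alternatives these 4 differences lay between -2.05 and -1.38.

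The differences of Avpr1a between isoforms were not used to choose it and were tested, on isoform arrays whose differences from GFP had been used. It was lower with FXRα3 than with FXRα1 by a difference of -0.49 (95% interval -0.71 to -0.28, adjusted p = 0.00403 by limma), with no overlap between the 3 arrays of each group, and this call held in all 27 alternatives (adjusted p from 0.000296 to 0.0336). In that comparison 6.86% of all genes passed. It was also lower with FXRα2 than with FXRα1, by -0.28 (-0.49 to -0.06, adjusted p = 0.0449 by limma), where 31.3% of all genes passed. That call was lost in 14 of the 27 alternatives, with adjusted p from 0.0511 to 0.183. Among them were those without FXRα1 replicate 1 (-0.27), FXRα1 replicate 3 (-0.23), FXRα2 replicate 2 (-0.29) or FXRα2 replicate 3 (-0.20), and those without FXRα3 replicate 2 or any 1 GFP array, which left the difference as it was. FXRα4 differed from FXRα3 by 0.09 (-0.12 to 0.31, adjusted p = 0.584) and from FXRα2 by -0.12 (-0.34 to 0.09, adjusted p = 0.493), and neither passed. The interaction, the difference that goes with lacking the insert in the long forms minus that in the short forms, was 0.37 (0.07 to 0.67). It did not pass (adjusted p = 0.108 by limma). It passed without FXRα3 replicate 1 (0.47, adjusted p = 0.0412) and without FXRα4 replicate 3 (0.51, adjusted p = 0.0149). In order of level the groups were FXRα3, FXRα4, FXRα2, FXRα1 and GFP, of which neighbours among the first 3 did not differ beyond their spread.

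The other vasopressin receptor measured, Avpr1b, the pituitary form, had log2 values from 3.50 to 3.99 on the 15 arrays. Each isoform group of it overlapped GFP, while its FXRα3 arrays (3.78 to 3.80) lay above its FXRα4 arrays (3.69 to 3.73), and it did not pass against GFP or between these. Oxtr, the related oxytocin receptor, was at 3.94, 4.14 and 4.07 with GFP and at 5.18, 5.12 and 5.48 with FXRα2. It rose with FXRα2 by 1.21 ± 0.11 (SE, adjusted p = 8.3e-09 by limma). On the FXRα1, FXRα3 and FXRα4 arrays it lay between 3.81 and 4.21, within or beside the GFP values, and its interaction was -1.20 ± 0.16 (adjusted p = 1.72e-05). Except with FXRα2, Oxtr lay below the array medians of 4.92 to 5.01, with no detection call. Its rise ranged from 0.74 to 1.28 over the alternatives.

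By the distance of the 4 differences from GFP (root mean square, in log2 units), the genes most like Avpr1a were Dhrs9 (0.328), Fmo2 (0.436), Lce6a (0.469), Osgin1 (0.50) and Tnfsf15 (0.546). Dhrs9 is a retinol and steroid dehydrogenase and Fmo2 a flavin monooxygenase. Dhrs9 differed from GFP by -0.99, -1.44, -1.71 and -1.52 with FXRα1 to FXRα4, and Osgin1 by -0.89, -0.90, -1.87 and -1.66. Lce6a lay further from GFP than Avpr1a in every group, at -1.97, -2.27, -2.17 and -2.32. These distances rest on 4 differences that share the GFP arrays.

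Ramp3 encodes a receptor partner that turns CALCRL into a receptor for adrenomedullin. Its log2 values were 3.47, 3.69 and 3.51 with GFP and 3.34, 3.56 and 3.66 with FXRα1. With FXRα2 they were 6.04, 5.91 and 6.17. With FXRα3 they were 3.69, 3.23 and 3.31, and with FXRα4 3.57, 3.33 and 3.43. The 3 FXRα2 arrays stood apart from the other 12, which ranged from 3.23 to 3.69 and overlapped between groups. The FXRα2 mean was 6.04 ± 0.13 (SD, n = 3), against 3.56 ± 0.12 for GFP, 3.52 ± 0.16 for FXRα1, 3.41 ± 0.25 for FXRα3 and 3.44 ± 0.12 for FXRα4. FXRα2 differed from GFP by 2.48 ± 0.12 (SE), a signal 5.59 times as high, and from FXRα1 by 2.52, and FXRα4 differed from FXRα2 by -2.60. The interaction was -2.49 ± 0.17. After adding 16 to the linear signals, which weighs low values less, the difference from GFP was 1.56, as was the size of the interaction. Values near 3.5 came with no detection call, so the ratio depends on what that floor holds.

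The genes most like Ramp3 were Rspo4 (distance 0.246), St6galnac4 (0.260), Rtp3 (0.288), Aldh1a2 (0.321) and Hrh3 (0.399). Rspo4 is a secreted agonist of the Wnt pathway, Aldh1a2 makes retinoic acid and Hrh3 is a histamine receptor. With FXRα2 they differed from GFP by 2.32, 2.40, 2.00, 2.00 and 2.23. With the other isoforms their differences from GFP ranged from -0.43 (Rtp3 with FXRα3) to 0.62 (Hrh3 with FXRα4). The likeness was read from 4 differences against the same 3 GFP arrays.

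The partners of Ramp3 had other orders of level. Calcrl, the receptor it joins, was at 4.39, 4.39 and 4.47 with GFP, at 4.82, 5.11 and 5.37 with FXRα3 and at 5.46, 5.36 and 5.62 with FXRα4. Calcrl rose with FXRα3 by 0.68 ± 0.12 (adjusted p = 0.000384 by limma) and with FXRα4 by 1.06 ± 0.12 (adjusted p = 3.57e-07), and both calls held in all 26 alternatives in which it was kept. Over them the differences went down to 0.43 and 0.70. The GFP values of Calcrl lay below the array medians of 4.92 to 5.01 and came with no detection call. With FXRα2, where Ramp3 was high, Calcrl was at 4.70, 4.66 and 4.92 and rose by 0.34 ± 0.12 (adjusted p = 0.037), a call lost in 8 of 26 alternatives, among them median centring (0.12) and leaving out FXRα2 replicate 1, FXRα2 replicate 3 or any 1 GFP array. It was higher with FXRα4 than with FXRα2 by 0.72 ± 0.12 (adjusted p = 0.000123), in a comparison where 23.7% of all genes passed.

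Adm, the precursor of adrenomedullin, was at 6.42, 6.25 and 6.46 with GFP and at 7.81, 7.26 and 7.92 with FXRα1. It rose by 1.29 ± 0.14 with FXRα1 (adjusted p = 3.95e-07 by limma), by 0.61 ± 0.14 with FXRα2 (adjusted p = 0.000912) and by 0.58 ± 0.14 with FXRα3 (adjusted p = 0.00432). With FXRα4 its difference of 0.27 ± 0.14 did not pass (adjusted p = 0.144). Adm2, the precursor of the related peptide intermedin, fell with FXRα1 by 0.36 on the log2 scale (adjusted p = 0.0071) and with FXRα4 by 0.45 (adjusted p = 0.00028). It also fell with FXRα3, by 0.27 (adjusted p = 0.0465), a call lost in 10 alternatives, among them leaving out FXRα2 replicate 1 or 2, FXRα3 replicate 3, FXRα4 replicate 3 or any 1 GFP array (-0.33 to -0.15 over all alternatives). Ramp1 and Ramp2, the other members of the partner family, ranged from 3.64 to 4.15 and from 3.58 to 4.17 over the 15 arrays, and all 5 groups of Ramp2 overlapped. The Ramp1 arrays of FXRα1 (3.82 to 3.91) and FXRα2 (3.64 to 3.94) lay below those of GFP (3.97 to 4.1). Those of FXRα3 and FXRα4 overlapped GFP.

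Of the 7 genes of the calcitonin receptor family and its partners, 2 rose with FXRα2 (Calcrl and Crcp), 1 with FXRα3 and 2 with FXRα4 (Calcrl and Crcp), and none fell. The shares of all genes that passed were 12.4%, 34.3%, 14.1% and 33.8% with FXRα1 to FXRα4. With FXRα1 none of the 7 passed in limma, 1 had an unadjusted p under 0.05, and 1 rose without FXRα1 replicate 2. On median-centred arrays 0 rose and 4 fell with FXRα2, and 2 rose and 4 fell with FXRα4. Crcp, a small protein that accompanies CALCRL signalling and is also a subunit of RNA polymerase III, rose by 0.27 with FXRα2 and by 0.39 with FXRα4 (SE 0.08, adjusted p = 0.0147 and 0.000574 by limma). The 2 calls with FXRα2 became 0 without FXRα2 replicate 3 or GFP replicate 1, and 1 without FXRα2 replicate 1, GFP replicate 2 or GFP replicate 3.

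**Figure D2:**
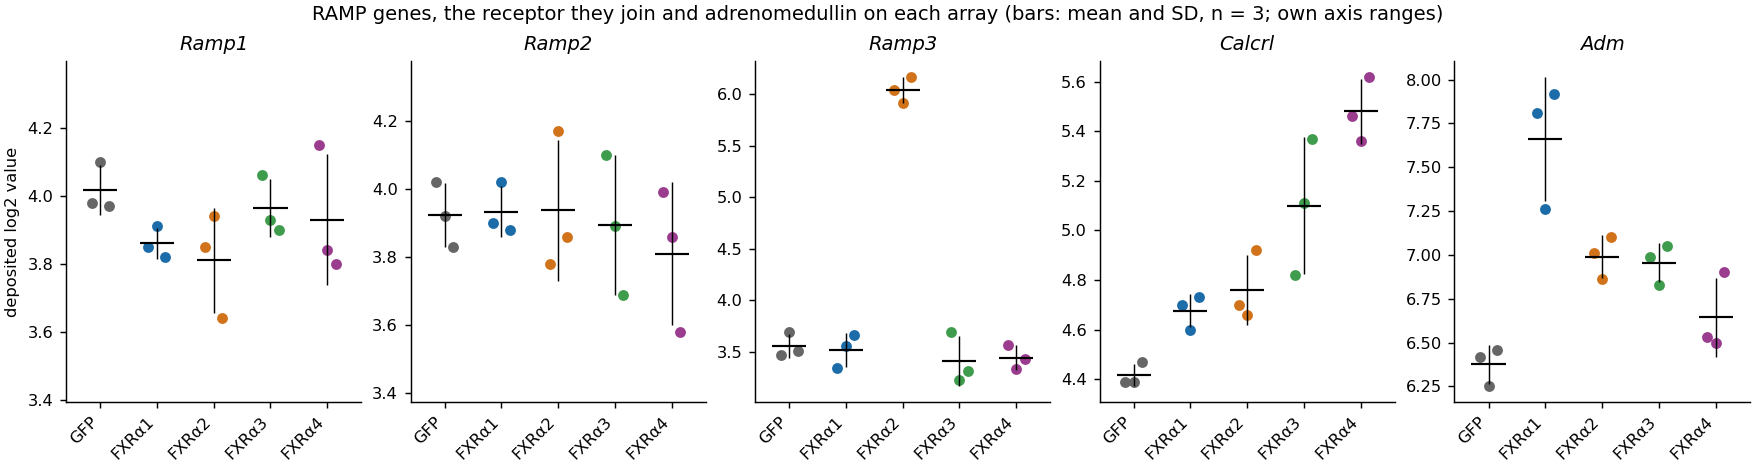
Deposited log2 value (y axis) of Ramp1, Ramp2, Ramp3, Calcrl and Adm on each of the 15 arrays (points), by virus (x axis), with the group mean and SD (n = 3) and a range of its own for each panel. Ramp3 is high on the 3 FXRα2 arrays, Calcrl is highest with FXRα4 (mean 5.48), and Adm is highest with FXRα1 (mean 7.67).

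Among receptors with kinase activity, Egfr, the receptor for EGF and its relatives, was the one that changed with the largest number of isoforms among the 6 members tested against GFP. Its log2 values were 10.48, 10.41 and 10.42 with GFP and 10.56, 10.68 and 10.65 with FXRα3. With FXRα4 they were 9.99, 10.20 and 10.12, with FXRα1 10.32, 10.33 and 10.22, and with FXRα2 10.30, 10.31 and 10.27. The FXRα3 arrays lay above all others, and the FXRα4 arrays below all others. Egfr rose with FXRα3 by 0.20 ± 0.05 (SE, adjusted p = 0.00861 by limma) and fell with FXRα4 by 0.33 ± 0.05 on the log2 scale (adjusted p = 1.33e-05), to 0.795 of the GFP signal. It also fell with FXRα2, by 0.14 (adjusted p = 0.0329), while with FXRα1 its difference of -0.14 did not pass (adjusted p = 0.0677).

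The FXRα4 difference of Egfr held in all 27 alternatives. The FXRα3 difference was lost with median centring (0.158, adjusted p = 0.109) and without FXRα3 replicate 2 (0.172, adjusted p = 0.057). The FXRα2 difference was lost in 8 alternatives, among them leaving out any 1 FXRα2 or GFP array (-0.154 to -0.12, adjusted p from 0.0502 to 0.117). The FXRα1 difference passed in 7 alternatives, among them either centring, quantile normalization and leaving out FXRα4 replicate 1 or FXRα4 replicate 2.

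Between isoforms Egfr was lower with FXRα4 than with FXRα3 by a difference of -0.53 (adjusted p = 2.88e-08 by limma), a signal 0.694 times as high, where 29.5% of all genes passed. It was higher with FXRα3 than with FXRα1 by 0.34 (adjusted p = 0.000111). Lower values with FXRα4 than with FXRα2 (-0.19, adjusted p = 0.00703) did not pass without FXRα4 replicate 1 (-0.135, adjusted p = 0.0633). FXRα2 and FXRα1 differed by 0.00 (-0.10 to 0.11, adjusted p = 0.98), and the difference that goes with lacking the insert was not the same in the long and the short forms by its own test, an interaction of -0.53 ± 0.07 (adjusted p = 2.39e-05). The interaction held in all 27 alternatives, and 12.9% of all genes passed that test.

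Other genes of the EGF receptor family moved on their own patterns. Erbb3, a kinase-impaired partner that binds neuregulins, was at 8.59, 8.52 and 8.61 with GFP, 9.63, 9.59 and 9.68 with FXRα2 and 9.51, 9.46 and 9.44 with FXRα4. It rose by 1.06 ± 0.05 with FXRα2 (adjusted p = 5.85e-13 by limma) and by 0.90 ± 0.05 with FXRα4 (adjusted p = 1.13e-11), in all 27 alternatives. On the FXRα1 and FXRα3 arrays Erbb3 lay between 8.57 and 8.72. Erbb2, the shared partner without a ligand of its own, ranged from 5.81 to 6.31 and did not pass against GFP in any isoform group. Hbegf, the heparin-binding ligand of EGFR, rose with every isoform, by 0.23, 0.44, 0.47 and 1.1 with FXRα1 to FXRα4 (SE 0.06, adjusted p = 0.017, 8.18e-06, 1.21e-05 and 8.11e-12). Its FXRα4 values of 8.71, 8.70 and 8.60 lay above every other array, where Egfr was lowest, and its FXRα1 call was lost in 6 alternatives, among them median centring and leaving out FXRα1 replicate 3, GFP replicate 1 or GFP replicate 2 (lowest difference 0.13).

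Of the 17 measured genes of EGF receptor signalling, 4 rose and 5 fell with FXRα1, 7 rose and 5 fell with FXRα2, 2 rose and 4 fell with FXRα3, and 8 rose and 4 fell with FXRα4. On median-centred arrays these counts were 2 and 7, 5 and 10, 2 and 5, and 5 and 6. The medians of their differences were 0.02, 0.02, -0.03 and 0.13, against 0.0035, -0.0477, -0.00263 and -0.0267 over all genes. Beside the counts before centring, 12.4%, 34.3%, 14.1% and 33.8% of all genes passed with FXRα1 to FXRα4. Without GFP replicate 2 the FXRα1 count was 4 higher and none lower. Map2k1, the kinase that activates ERK, rose with every isoform, by 0.58, 1.03, 0.45 and 0.48 (SE 0.06). Egr1, an immediate early gene, fell with FXRα1 by 0.34 (adjusted p = 0.0124), a call lost without FXRα1 replicate 1 or 3 or GFP replicate 2 (-0.45 to -0.27 over all alternatives). It rose by 1.52 ± 0.09 with FXRα2 (adjusted p = 9.9e-12) and by 1.83 ± 0.09 with FXRα4 (adjusted p = 7.83e-13), with values of 9.25 to 9.37 and 9.50 to 9.72 against 7.73 to 7.95 with GFP. Fos, also an immediate early gene, rose by 1.34 with FXRα2 and by 1.63 ± 0.12 with FXRα4 (adjusted p = 8.65e-09 and 4.65e-10 by limma). Errfi1, an inhibitor of EGFR, fell with every isoform, by 0.15, 0.21, 0.16 and 0.42 with FXRα1 to FXRα4 (SE 0.04, adjusted p = 0.0189, 0.000304, 0.0114 and 3.72e-08). Its FXRα1 call was lost without FXRα1 replicate 1 or GFP replicate 1 or 2, and its FXRα3 call without FXRα3 replicate 1 or GFP replicate 1.

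Insr encodes the insulin receptor, and the cells had been without added insulin for the last 24 h. Its log2 values were 9.66, 9.56 and 9.66 with GFP and 9.21, 9.16 and 9.16 with FXRα3. With FXRα1 they were 9.48, 9.36 and 9.52, with FXRα2 9.57, 9.66 and 9.61, and with FXRα4 9.62, 9.62 and 9.52. The FXRα3 arrays lay below all others, and the FXRα2 and FXRα4 arrays overlapped GFP. Insr fell with FXRα3 by 0.45 ± 0.05 on the log2 scale (SE, adjusted p = 1.95e-06 by limma), to 0.734 of the GFP signal, in all 27 alternatives. With FXRα1 it fell by 0.17 (adjusted p = 0.0311), a call lost when any of 3 arrays was left out. The difference was -0.127 (adjusted p = 0.125) without FXRα1 replicate 2 and -0.156 (adjusted p = 0.117 and 0.126) without GFP replicate 1 or 3. With FXRα2 and FXRα4 its differences from GFP were -0.01 (adjusted p = 0.90) and -0.04 (adjusted p = 0.611). Both passed on median-centred arrays, at -0.232 (adjusted p = 0.00187 by limma) and -0.254 (adjusted p = 0.000926).

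Between isoforms Insr was higher without the insert. It was higher with FXRα4 than with FXRα3 by 0.41 (adjusted p = 2.29e-06 by limma) in all 27 alternatives. It was higher with FXRα2 than with FXRα1 by 0.16 (adjusted p = 0.0206), which was lost with only the groups compared (0.162), with median centring (0.0453) and without FXRα1 replicate 2 (0.116) or FXRα2 replicate 2 (0.14). It was lower with FXRα3 than with FXRα1 by a difference of -0.27 (adjusted p = 0.00172), also in all 27. The interaction of 0.24 ± 0.07 passed (adjusted p = 0.0322) but was lost in 10 alternatives. These included leaving out FXRα1 replicate 1 or 3, FXRα2 replicate 1, FXRα3 replicate 2 or 3, or FXRα4 replicate 1 or 2 (0.212 to 0.236, adjusted p from 0.0648 to 0.0892).

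A second, dimmer probe set of Insr gave means of 9.11 for GFP and FXRα4 alike, 9.01 and 9.23 for FXRα1 and FXRα2, and 8.77 for FXRα3. Its FXRα3 difference from GFP of -0.339 passed (adjusted p = 7.15e-05 by limma over probe sets), and it was higher with FXRα4 than with FXRα3 by 0.333 (adjusted p = 2.84e-05). In it the FXRα1 difference of -0.099 (adjusted p = 0.279) and the interaction of 0.116 (adjusted p = 0.376) did not pass. The dimmer probe set also passed for FXRα2 against FXRα1 (0.217, adjusted p = 0.00227 by limma) and for FXRα3 against FXRα1 (-0.24, adjusted p = 0.00529). Both probe sets thus called the FXRα3 fall. For FXRα1 against GFP and for the interaction they had the same sign, but only the brighter passed.

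Of the 22 measured genes of insulin signalling, none rose and 6 fell with FXRα3, and on median-centred arrays none rose and 9 fell. With FXRα1 4 rose and 2 fell (2 and 6 after centring), with FXRα2 9 rose and 6 fell (4 and 12), and with FXRα4 3 rose and 7 fell (2 and 17). The medians of their differences were -0.02, 0.08, -0.06 and -0.03 with FXRα1 to FXRα4. Before centring, 12.4%, 34.3%, 14.1% and 33.8% of all genes passed with these isoforms. Pik3r1, the regulatory subunit of PI3-kinase, fell with every isoform, by 0.34, 0.18, 0.40 and 0.34 with FXRα1 to FXRα4 (SE 0.06, adjusted p = 0.000456, 0.0273, 7.11e-05 and 0.00011 by limma), of which the FXRα2 call was lost without FXRα2 replicate 2 or 3 or GFP replicate 1. Pik3cb, a catalytic subunit, fell with every isoform, by 0.23, 0.37, 0.31 and 0.16 with FXRα1 to FXRα4 (SE 0.04). Irs1, an adaptor of the insulin receptor, rose by 0.96, 0.78 and 0.72 with FXRα1, FXRα2 and FXRα4 (SE 0.15, adjusted p = 9.24e-05, 0.000287 and 0.000641), and its FXRα3 difference of 0.37 did not pass (adjusted p = 0.134). Foxo3, a transcription factor that insulin signalling restrains, fell by 0.33 ± 0.07 with FXRα3 and rose by 0.40 ± 0.07 with FXRα4, with an interaction of 0.53 ± 0.09 (adjusted p = 0.000509). Igf1r, the receptor closest to Insr, had values of 4.35 to 4.66 with GFP, 5.95 to 6.52 with FXRα2 and 7.15 to 7.40 with FXRα4. It rose by 1.67 ± 0.14 with FXRα2 (adjusted p = 2.97e-09) and by 2.76 ± 0.14 with FXRα4 (adjusted p = 1.4e-12), in all 26 alternatives in which it was kept, and by 0.61 with FXRα3 (adjusted p = 0.00445), also in all 26. Over the alternatives these rises went down to 1.19, 2.13 and 0.39. The GFP values of Igf1r lay below the array medians of 4.92 to 5.01 and came with no detection call.

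Gcgr encodes the glucagon receptor. Its log2 values were 7.62, 7.42 and 7.58 with GFP, 7.38, 7.13 and 7.38 with FXRα3 and 7.55, 7.05 and 7.08 with FXRα4. With FXRα1 and FXRα2 they lay between 7.29 and 7.72. The difference with FXRα4 was -0.31 (95% interval -0.57 to -0.05) and did not pass (adjusted p = 0.0573 by limma), with 1 FXRα4 array inside the GFP range. It passed in 12 of the 27 alternatives, among them those without FXRα4 replicate 1 (-0.473, adjusted p = 0.00307), GFP replicate 2 (-0.37, adjusted p = 0.0499), FXRα1 replicate 2 (adjusted p = 0.0323) or FXRα1 replicate 3 (adjusted p = 0.0489). The FXRα3 arrays all lay below the GFP arrays, with a difference of -0.24 ± 0.12 that did not pass (adjusted p = 0.26).

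Downstream of the glucagon receptor, 3 of the 33 measured genes of cyclic AMP and protein kinase A rose and 2 fell with FXRα1, 7 rose and 8 fell with FXRα2, 1 rose and 2 fell with FXRα3, and 8 rose and 6 fell with FXRα4. On median-centred arrays the counts were 3 and 6, 5 and 20, 1 and 7, and 3 and 14. The FXRα1 count was 3 higher and none lower without GFP replicate 2 or GFP replicate 3, and the FXRα4 count was 3 higher and 5 lower without FXRα4 replicate 3. Among all genes, 12.4%, 34.3%, 14.1% and 33.8% passed with FXRα1 to FXRα4 before centring. Gnai1, an inhibitory G protein subunit, rose with every isoform, by 1.37, 1.66, 1.09 and 1.70 (SE 0.16, adjusted p = 1.68e-06, 2.03e-08, 3.72e-05 and 1.48e-08 by limma). Gnai2 and Gnai3, also inhibitory subunits, went the other way. Gnai2 differed by -0.16 with FXRα1 (lost in 5 alternatives) and -0.27 with FXRα2. Gnai3 differed by -0.16 with FXRα2 and -0.12 with FXRα4 (lost in 8 alternatives). Prkar1a, a regulatory subunit that holds protein kinase A inactive, fell by 0.89 with FXRα2 and by 0.95 with FXRα4 (SE 0.05, adjusted p = 8.7e-13 and 5.23e-13), and Prkar2a, of the same role, fell by 0.63 and 0.62 with them (SE 0.06, adjusted p = 3.22e-08 and 4.85e-08). Pde4c, which breaks down cyclic AMP, rose by 0.42 with FXRα1 and by 1.40 with FXRα2 (SE 0.10).

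Agtr1a encodes the angiotensin II receptor, and its values were 7.67, 7.46 and 7.89 with GFP, 7.72, 7.48 and 7.69 with FXRα1 and 8.01, 7.81 and 7.89 with FXRα2. They were 7.60, 7.17 and 7.59 with FXRα3 and 7.70, 7.64 and 7.56 with FXRα4. It did not pass in any of the 9 contrasts by limma, and 3 of them had an unadjusted p under 0.05. The 3 FXRα2 arrays lay above those of FXRα1 (difference 0.27, 95% interval 0.04 to 0.50, adjusted p = 0.0653) and above those of FXRα4 (difference -0.27 for FXRα4 minus FXRα2, -0.50 to -0.04, adjusted p = 0.0856). The first passed in 6 alternatives, among them 75th percentile centring (adjusted p = 0.0233), quantile normalization (adjusted p = 0.0312) and leaving out FXRα3 replicate 2 (adjusted p = 0.0312). The second passed in 3, among them leaving out FXRα3 replicate 2 (adjusted p = 0.0436). Against GFP, Agtr1a passed with FXRα2 without GFP replicate 3 (0.336, adjusted p = 0.0319) and with FXRα4 on median-centred arrays (-0.251, adjusted p = 0.0454). Agt, which encodes angiotensinogen, the precursor of its ligand made by hepatocytes, ranged from 8.53 to 8.77 over the 15 arrays and did not pass in any contrast.

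Adra1b, an alpha-1 adrenergic receptor of hepatocytes, had a mean of 4.86, below the array medians of 4.92 to 5.01, and no detection call. It ranged from 4.72 to 4.83 with GFP. On the arrays of FXRα1 and FXRα2 it ranged from 4.77 to 5.05 and from 4.74 to 5.13, and on those of FXRα3 and FXRα4 from 4.80 to 4.85 and from 4.82 to 5.03. It did not pass in any of the 9 contrasts by limma, and 0 of them had an unadjusted p under 0.05. The same was true of Ghr, the growth hormone receptor, which ranged from 8.25 to 8.39 with GFP, from 8.20 to 8.32 on the arrays of FXRα1 and also on those of FXRα3, from 8.21 to 8.25 with FXRα2 and from 8.28 to 8.39 with FXRα4. The SDs of Ghr were 0.02 to 0.07 within groups. On median-centred arrays Ghr was lower than with GFP with FXRα2 (-0.311, adjusted p = 7.78e-05 by limma) and FXRα4 (-0.195, adjusted p = 0.00607). There it also passed for FXRα2 against FXRα1 (-0.159, adjusted p = 0.0267).

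**Figure D3:**
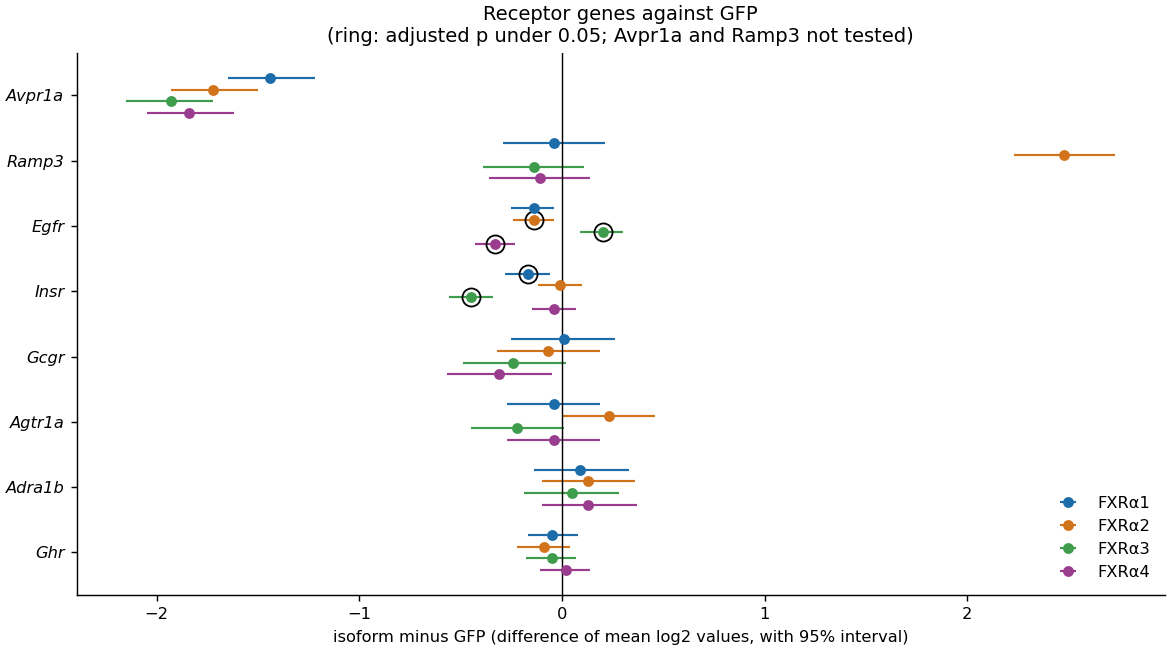
Difference of each isoform from GFP (x axis, log2, with its 95% interval) for the 8 measured receptor genes (y axis), coloured by isoform. Rings mark adjusted p under 0.05 by limma among the 6 genes tested; Egfr has 3 rings (FXRα2, FXRα3 and FXRα4) and Insr 2 (FXRα1 and FXRα3), while Avpr1a and Ramp3 were not tested.

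Counted over the 6 members tested against GFP, 1 passed with FXRα1 (Insr, lower), 1 with FXRα2 (Egfr, lower), 2 with FXRα3 (Egfr, higher, and Insr, lower) and 1 with FXRα4 (Egfr, lower). Set beside 12.4%, 34.3%, 14.1% and 33.8% of all genes, these counts of 6 do not stand out. Over the 7 members tested between isoforms, 2 passed between FXRα2 and FXRα1, beside 31.3% of all genes, and 2 between FXRα4 and FXRα3, beside 29.5%, the pairs that differ in the insert. For the pairs that differ in the N-terminus, 3 passed between FXRα3 and FXRα1, and 1 between FXRα4 and FXRα2, beside 23.7%. The 3 of 7 between FXRα3 and FXRα1 (Avpr1a and Insr lower, Egfr higher) stand beside 6.86% of all genes, and the count was 3 in all 27 alternatives. Of these, Avpr1a was put on the list for its values on the same isoform arrays. Insr and Egfr lay at percentiles 86.9 and 93.6 of mean level, while the share of all genes includes dim ones. The interaction passed for 2 of 7 (Egfr and Insr), beside 12.9% of all genes.

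The Gq, phospholipase C and calcium genes carry the signal of the receptors for vasopressin, angiotensin and noradrenaline. Of 23 measured, 4 rose and 6 fell with FXRα2, 2 rose and 4 fell with FXRα3, and 5 rose and 4 fell with FXRα4. None passed with FXRα1 by limma, where 2 were higher and 4 lower at an unadjusted p under 0.05, 4 fell with 75th percentile centring or quantile normalization, and 3 rose without FXRα1 replicate 2. There 1 fell without FXRα1 replicate 1 or 3, FXRα4 replicate 3 or GFP replicate 2. On median-centred arrays the counts were 0 and 5 with FXRα1, 1 and 15 with FXRα2, 1 and 7 with FXRα3, and 4 and 12 with FXRα4. The counts before centring stand beside 12.4%, 34.3%, 14.1% and 33.8% of all genes with FXRα1 to FXRα4. Gnaq, the G protein subunit that these receptors activate, fell by 0.46 ± 0.07 with FXRα3 (adjusted p = 3.07e-05 by limma) and rose by 0.24 with FXRα4 (adjusted p = 0.00802), the latter lost with median centring (0.02), and its interaction was 0.50 ± 0.09 (adjusted p = 0.000943). Pygl, liver glycogen phosphorylase, the enzyme these hormones switch on, fell by 0.25, 0.44 and 0.38 with FXRα2, FXRα3 and FXRα4 (SE 0.06, adjusted p = 0.00222, 1.76e-05 and 3.02e-05). Plcb4, a phospholipase C, rose by 0.66 ± 0.11 with FXRα2 and by 1.5 ± 0.11 with FXRα4 (adjusted p = 2.96e-05 and 1.78e-10). Its rise of 0.34 with FXRα3 (adjusted p = 0.0345) was lost without any 1 FXRα3 or GFP array (0.23 to 0.36 over all alternatives). Itpr3, a calcium release channel, fell by 0.65 ± 0.10 with FXRα2 (adjusted p = 1.29e-05), and Itpr2, the main such channel of hepatocytes, fell by 0.58 ± 0.08 with FXRα4 (adjusted p = 1.81e-06).

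Receptor kinases, arrestins and RGS proteins switch such receptors off. Of 14 measured, 1 rose with FXRα1, 2 rose and 2 fell with FXRα2, 2 rose with FXRα3, and 3 rose and 2 fell with FXRα4, with 0 and 1, 0 and 7, 2 and 1, and 1 and 7 on median-centred arrays. Before centring the shares of all genes were 12.4%, 34.3%, 14.1% and 33.8% with FXRα1 to FXRα4. Arrb2, an arrestin, fell by 0.48 with FXRα2 and by 0.51 with FXRα4 (SE 0.08, adjusted p = 2.81e-05 and 1.03e-05 by limma). The FXRα1 call, Grk6, was lost without FXRα1 replicate 1 or 3 or any 1 GFP array, and 2 genes rose without FXRα1 replicate 2. Of the 2 FXRα3 calls, Grk5 and Grk6, none was left without FXRα3 replicate 2 or 3 or GFP replicate 2 or 3, and 1 without FXRα3 replicate 1 or GFP replicate 1. With FXRα4, 2 rose and 1 fell without FXRα4 replicate 2 or GFP replicate 1 or 3.

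Of the 15 genes of growth hormone and prolactin signalling, 2 rose and 2 fell with FXRα1, 7 rose and 3 fell with FXRα2, 1 rose and 4 fell with FXRα3, and 3 rose and 5 fell with FXRα4. After median centring the counts were 1 and 5, 4 and 8, 1 and 5, and 1 and 9. Before it, 12.4%, 34.3%, 14.1% and 33.8% of all genes passed with FXRα1 to FXRα4. Socs2, a feedback inhibitor of the growth hormone receptor, fell by 0.53 with FXRα1 and by 0.39 with FXRα3 and rose by 0.48 with FXRα2 and by 0.30 with FXRα4 (SE 0.06, adjusted p = 4.9e-07, 3.6e-05, 4.5e-07 and 0.000167 by limma). The FXRα4 rise was lost on median-centred arrays (0.09), and the other 3 calls held in all 27 alternatives. Socs3, a feedback inhibitor of cytokine receptors, rose with every isoform, by 0.41, 1.36, 0.63 and 0.80 with FXRα1 to FXRα4 (SE 0.11), of which the FXRα1 call (adjusted p = 0.0188) was lost without FXRα1 replicate 1 or GFP replicate 1 or 3. Igf1, a target of growth hormone in liver, fell by 0.26, 0.39 and 0.15 with FXRα1, FXRα2 and FXRα4 (SE 0.04, adjusted p = 0.000231, 2.51e-07 and 0.0115), the last lost without FXRα4 replicate 1. Igfals, the subunit that keeps IGF1 in the circulation, rose by 0.61 with FXRα2 and fell by 0.33 with FXRα4, with an interaction of -0.88 ± 0.11 (adjusted p = 6.15e-06).

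The other hormone and growth factor receptors numbered 25. With FXRα1 4 rose and 1 fell, with FXRα2 10 rose and 4 fell, with FXRα3 3 rose and 5 fell, and with FXRα4 8 rose and 4 fell, and on median-centred arrays the counts were 3 and 5, 8 and 9, 3 and 5, and 4 and 10. The FXRα1 count was 3 and none without FXRα1 replicate 2 or GFP replicate 2. P2ry2, a Gq-coupled receptor for extracellular ATP and UTP, rose with every isoform, by 0.81, 1.04, 0.52 and 1.16 (SE 0.06, adjusted p = 8.23e-09, 1.83e-11, 4.84e-06 and 4.31e-12 by limma), in all 27 alternatives. Klb, the partner of the FGF receptor for FGF21 and FGF15, fell by 0.89 with FXRα3 and by 0.70 with FXRα4 (SE 0.11, adjusted p = 4.25e-06 and 1.94e-05). Nr3c1, the glucocorticoid receptor, fell by 0.39 ± 0.06 with FXRα3 (adjusted p = 7.28e-05). Its falls of 0.19 with FXRα1 (adjusted p = 0.0473) and 0.16 with FXRα2 (adjusted p = 0.0449) were lost in 16 and 9 alternatives, among them leaving out any 1 FXRα1 array for the first and FXRα2 replicate 2 or 3 or GFP replicate 1 for the second. Of the 13 ligand genes, 2 rose and 2 fell with FXRα1, 4 and 1 with FXRα2, 2 and 1 with FXRα3, and 3 and 3 with FXRα4, or 1 and 3, 2 and 6, 2 and 1, and 1 and 6 after median centring. The FXRα4 count was 1 and 2 without GFP replicate 2. For the other receptors as for the ligands, the counts before centring stand beside 12.4%, 34.3%, 14.1% and 33.8% of all genes.

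**Figure D4:**
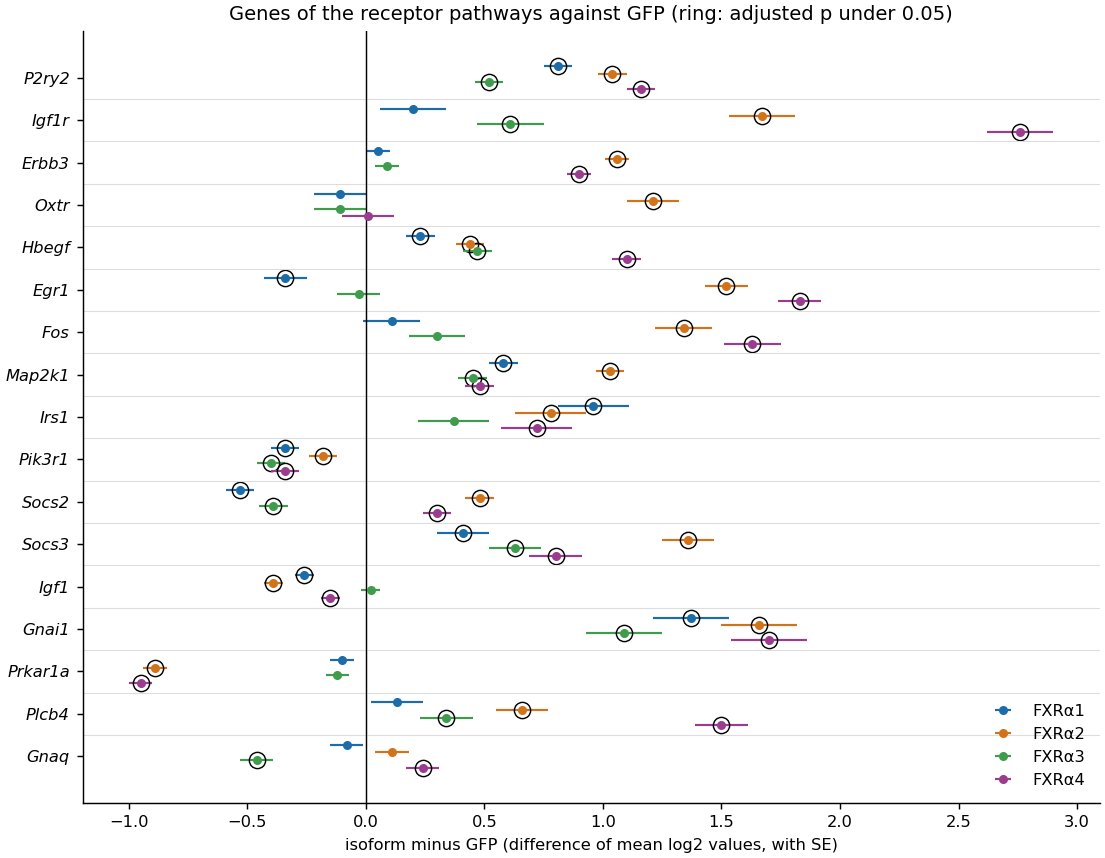
Difference of each isoform from GFP (x axis, log2, with its SE) for 17 genes of the receptors' pathways (y axis), coloured by isoform, with rings for adjusted p under 0.05 by limma. P2ry2, Gnai1 and Map2k1 lie above 0 with all 4 isoforms, Igf1r, Erbb3, Egr1 and Fos lie furthest above 0 with FXRα2 and FXRα4, and Socs2 lies below 0 with FXRα1 and FXRα3 and above 0 with FXRα2 and FXRα4.

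The cells carried the markers of their labelled type. The 9 measured hepatocyte markers summed to a log2 level of 14.93 to 15.02 with GFP and 14.93 to 15.05 with FXRα1. With FXRα2 (15.09 to 15.19), FXRα3 (15.03 to 15.13) and FXRα4 (15.04 to 15.11) the sums all lay above those of GFP. Of these markers 2 rose and 1 fell with FXRα1, 6 rose with FXRα2, 5 rose and 1 fell with FXRα3 and 6 rose with FXRα4 (1 and 1, 2 and 2, 4 and 1, and 3 and 3 on median-centred arrays). In culture, fewer cells of a type and less RNA per cell cannot be told apart in such values. Counts of these and the marker lists below, before centring, stand beside 12.4%, 34.3%, 14.1% and 33.8% of all genes with FXRα1 to FXRα4. Because RAMP genes and Calcrl are also genes of vessels, markers of endothelial cells were set beside them. All 10 were measured, and their summed log2 level was 8.34 to 8.41 with GFP. It was 8.30 to 8.51 and 8.30 to 8.62 on the arrays of FXRα1 and FXRα2, and 8.26 to 8.39 and 8.26 to 8.36 on those of FXRα3 and FXRα4, so that the groups overlapped. Of the 10, Stab2 rose with FXRα2 (0.30, adjusted p = 0.0466 by limma) and Tek fell with FXRα4 by 0.30 (adjusted p = 0.0181), and no other passed against GFP. Stab2 lost this call in 15 alternatives, among them leaving out any 1 array of FXRα3 or FXRα4, FXRα2 replicate 1 or 3, or GFP replicate 1 or 2 (lowest difference over all 0.08). Tek lost it without FXRα4 replicate 3 or GFP replicate 2 (-0.51 to -0.14 over all alternatives). On median-centred arrays 4 of the 10 fell with FXRα2 and 6 with FXRα4.

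Of the other marker lists, 0 of 10 Kupffer cell and macrophage genes and 0 of 8 lymphocyte and neutrophil genes passed against GFP in any group by limma, with at most 2 at an unadjusted p under 0.05 in any comparison with GFP. The Kupffer cell and macrophage sums were 9.35 to 9.46 with FXRα2, above the 9.18 to 9.32 of GFP, and the other isoform groups overlapped GFP. In this list 1 gene rose with FXRα2 with 75th percentile centring, quantile normalization or leaving out FXRα1 replicate 2 or 3, FXRα4 replicate 2 or 3 or GFP replicate 3, and 1 fell without FXRα2 replicate 3. With FXRα4, 1 fell without FXRα4 replicate 1 or 3. The lymphocyte and neutrophil sums were 6.59 to 6.63 with FXRα2, below the 6.67 to 6.72 of GFP. On median-centred arrays 7 of the Kupffer cell and macrophage genes fell with FXRα2 and 6 with FXRα4, and 7 and 2 of the lymphocyte and neutrophil genes. Of 10 stellate cell and fibroblast genes, Reln rose with FXRα2 (0.55) and FXRα4 (0.97 ± 0.11, SE), and Acta2 fell with FXRα4 by 0.34, a call lost without FXRα4 replicate 2 or 3 or any 1 GFP array (-0.55 to -0.21 over all alternatives). On median-centred arrays 1 of the 10 rose and 6 fell with FXRα2, as with FXRα4. Their summed log2 level was 8.06 to 8.11 with GFP, 8.14 to 8.20 with FXRα2 and 8.22 to 8.41 with FXRα4. The 5 measured cholangiocyte markers summed to 9.76 to 9.91 with GFP, to 10.93 to 11.01 and 11.29 to 11.45 in the FXRα1 and FXRα3 arrays, and to 10.52 to 10.83 and 10.60 to 10.77 in the FXRα2 and FXRα4 arrays. Of the 5, 3 rose with FXRα1 and with FXRα3, and 2 rose and 1 fell with FXRα2 and with FXRα4, where 2 rose and 3 fell on median-centred arrays. The summed level was thus higher with every isoform, but its genes did not move together. Krt19 differed from GFP by 1.32, -1.82, 1.76 and -0.93 with FXRα1 to FXRα4. Epcam differed by 0.68, 4.95, 0.74 and 4.68. The part of these markers in the receptor values was not tested.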

How the data were processed

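Total RNA of 15 cultures of mouse primary hepatocytes was measured on Affymetrix whole-transcript arrays, 3 for each of 5 adenoviruses. The authors deposited a table of log2 values, 1 for each probe set and array. That they are log2 is read from their range, as no label gives the base. The submitters' processing notes name Affymetrix Expression Console 1.1 and PLIER with no role, and how background was corrected and arrays normalized is not given in these sources. Of 35556 probe sets, 21218 had 1 gene symbol in the array annotation, 1881 several and 12457 none, which gave 18820 genes, 1386 of them with over 1 probe set.

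In R 4.3.3, limma 3.58.1 fitted 5 group means over all arrays (10 residual degrees of freedom), with variances moderated along a mean trend. Two-sided p-values were adjusted (Benjamini-Hochberg, all genes) within each of 9 contrasts (4 against GFP, 4 between isoforms, and the interaction, FXRα4 minus FXRα3 less FXRα2 minus FXRα1). Members and gene lists were chosen with earlier results of these data known. Avpr1a was not tested against GFP. Ramp3 was to be tested against GFP but was left untested throughout, since those differences share arrays with the interaction that chose it. From each of the 9 pathway lists the text could name up to 3 genes with the smallest adjusted p in a comparison. Ligands, partners and relatives of members could also be named. A named gene's values in other comparisons, Gnai2 and Gnai3, and the marker genes named, were chosen after their values were seen. Likeness was the root mean square distance over the 4 differences from GFP, with predicted genes passed over, and the 5 nearest were named.

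There were 12 alternatives (no mean trend, robust variances, array weights, only the groups compared, centring on the median or the 75th percentile, quantile normalization, testing only the brighter genes at 2 cut-offs, every probe set, 16 added to linear values, and the replicate number as a block) and 15 more that left out 1 array each. The code was tested on simulated data. Sequences are RefSeq's for GRCm38.p6. Tables and figures were made with Python 3.11.15, pandas 2.3.3, numpy 2.4.6 and matplotlib 3.10.9.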

Additional observations from a re-analysis of the deposited data

Results flagged for a closer look

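The difference that goes with lacking the insert was not the same in the long and the short isoforms for 2 of the 7 receptor genes tested. This was by the interaction test in limma, which 12.9% of all genes passed. For Egfr the interaction was -0.53 on the log2 scale (adjusted p = 2.39e-05), with lower values for FXRα4 than for FXRα3 in all 3 arrays of each group and a difference of 0.00 between FXRα2 and FXRα1. For Insr the interaction was 0.243 (adjusted p = 0.0322), with FXRα4 above FXRα3 by 0.41 and FXRα2 above FXRα1 by 0.16. The Insr call was lost in 10 of 27 alternatives, 7 of which left out 1 array, and its second probe set did not pass (0.116, adjusted p = 0.376).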

How the results depend on the processing

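The number of receptor genes called was 2 of 7 for FXRα4 against FXRα3 and 3 of 7 for FXRα3 against FXRα1 in every alternative. For FXRα1 against GFP the count of 1 became 0 with no mean trend or with only the groups compared, and 2 with either centring, quantile normalization, the dimmest genes left out in the larger step or the replicate block, and it ranged from 0 to 2 when 1 array was left out. For FXRα2 against GFP it became 0 with no trend or 75th percentile centring, 4 with median centring and 2 with the block (0 to 1 without 1 array). For FXRα3 against GFP the count of 2 became 1 with median centring (1 to 2). For FXRα4 against GFP the count of 1 became 2 with array weights, only the groups compared, 75th percentile centring, quantile normalization, the dimmest genes left out in either step or the block, and 5 with median centring (1 to 2). For FXRα2 against FXRα1 it went from 2 to 1 with no trend, robust variances, array weights or every probe set, and to 3 with the dimmest genes left out in the larger step or the block (0 to 2 without 1 array), for FXRα4 against FXRα2 from 1 to 2 with only the groups compared and 3 with the block (1 to 2), and for the interaction from 2 to 1 with no trend or either centring and to 3 with the block (1 to 3). Signs turned for Ghr with FXRα4 against GFP, at -0.195 with median centring and -0.0175 to 0.0519 without 1 array, for Agtr1a with FXRα4 (-0.146 to 0.067) and for Insr with FXRα2 (-0.0447 to 0.0112). Median centring shifts all differences by construction; the cause of the others was not tested.

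Same-numbered arrays of different groups share only a number in the labels. Their deviations correlated with r from -0.21 to 0.43 (median 0.16, 30 pairs), against -0.42 to 0.31 (median -0.077, 60 pairs) for other pairs, and 11 of 15 arrays correlated best with their own number, a hint from the data alone. The replicate block moved the count of all genes for FXRα3 against FXRα1 from 1291 to 2117, and no other count of all genes by over 1.5 times. Among list counts against GFP (higher and lower), it moved those of cyclic AMP genes with FXRα1 from 3 and 2 to 8 and 3 and with FXRα3 from 1 and 2 to 1 and 4, of Gq and calcium genes with FXRα1 from 0 and 0 to 1 and 4, of the calcitonin receptor family with FXRα1 from 0 to 1 higher, of receptor kinases with FXRα1 from 1 and 0 to 1 and 1, and with FXRα2 of Kupffer cell genes from 0 to 1 higher and of stellate cell genes from 1 and 0 to 1 and 1. Among receptor genes it added calls for Avpr1a in the interaction (0.37, adjusted p = 0.0335), Gcgr with FXRα4 against GFP (-0.31, adjusted p = 0.00452) and against FXRα2 (-0.244, adjusted p = 0.0324), Agtr1a with FXRα2 against GFP, FXRα2 against FXRα1 and FXRα4 against FXRα2 (adjusted p = 0.0286, 0.0103 and 0.0145) and Egfr with FXRα1 (adjusted p = 0.0329), and ended none.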
